A study of Mus musculus with 6 samples.

Results

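The tripartite motif (TRIM) genes were examined in RAW264.7 cells, a mouse macrophage line established from a tumour induced by Abelson leukaemia virus, after knockdown of the ETS transcription factor *Etv5*. Members were all gene symbols made of "Trim", a number and at most 1 further letter, which gave 67 of the 24786 symbols in the table. Of these, 33 had an RPKM of 1 or more in at least 3 of the 6 libraries and were tested among 10738 such genes, and 34 stayed below that level. RPKM, reads per kilobase of transcript scaled to the mapped total of the library, is the level used throughout, and it is already scaled for gene length. The 3 control libraries came from cells given a non-targeting hairpin by lentivirus (sh-NC), and the 3 knockdown libraries from cells given a hairpin against *Etv5* (sh-*Etv5*). All 6 carried the virus and were selected with puromycin, and all were labelled with the strain C57BL/6 and postnatal day 21 although they are 1 tumour line. Expression was read 24 or 48 hours after infection according to the labels, which do not say which time belongs to which library. The methods describe stable cells passaged under puromycin, which does not match those times, so the time since infection is not known. The study used a constitutive hairpin vector and lists several *Etv5* hairpins, and which of them was sequenced was not stated. Nothing states that the 3 libraries of each group stem from independent infections either, so the p-values measure the spread between these libraries, which may be technical.

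The targeted gene read 9.18, 9.89 and 9.39 RPKM in sh-NC and 5.19, 4.91 and 5.28 RPKM in sh-*Etv5*, so *Etv5* fell by 46.0% (log2 fold change -0.78, SE 0.0565, limma adjusted p = 2.74e-07). The groups did not overlap, and a good part of the *Etv5* mRNA was still present. Of 8 macrophage markers 7 were tested, of which 3 rose and 4 fell, where 33.3% of all tested genes rose and 41% fell. The largest changes in the list were the rises of *Itgam* (log2 fold change 1.88) and *Adgre1* (1.77). The summed level of the list was 4298 to 4408 RPKM in sh-NC and 3368 to 3486 RPKM in sh-*Etv5*. *Lyz2* made up most of this sum and fell from 2834 ± 40.3 to 2041 ± 54.2 RPKM (SD, n = 3), while *Mertk* was near 0 in every library. The fibroblast, epithelial and B cell marker lists each summed to at most 0.367 RPKM in any library. The T cell list summed to 1.07 to 1.64 RPKM in sh-NC and 4.0 to 4.21 RPKM in sh-*Etv5*, and *Lck* was its 1 tested gene while the 3 *Cd3* genes were below 0.1 RPKM. The part of macrophage marker levels in the results was not tested.

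TRIM proteins are mostly E3 ubiquitin ligases. A RING domain at the start of the protein brings a ubiquitin-loaded E2 enzyme to the target, followed by B-box zinc fingers and a coiled coil through which the proteins pair, and the end of the protein (a SPRY, NHL, COS, or PHD and bromodomain module) selects the target. In macrophages the family is best known for tuning the sensing of viral RNA and DNA and the NF-κB response, and many members are themselves induced by interferon, while the chromatin members act in the nucleus as co-repressors.

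Because many TRIM genes are interferon-induced and the cells were depleted of an ETS factor, the RefSeq promoter windows (GRCm38.p6, 250 bases before to 50 bases after each start) were searched on both strands for GAAA followed after any 2 bases by another GAAA, the core of the interferon-stimulated response element, and for CCGGAAGT, an ETS consensus. Windows were at hand for 52 of the 67 members and for 25 of the 33 tested. The first pattern was found in 7 of these 25 genes (28%), compared with 4.08% of 8317 tested genes with a window and 3.44% of all 32851 windows. The ETS pattern was found in 2 of the 25 (8%), compared with 10.5% of tested genes and 3.89% of all windows. Chromosome 7 members are copies of each other in part, so their windows are not independent, and a match is a description of letters and not a site. The 30-base stretches that hold the first pattern are shown because their genes went in different directions after knockdown, each 5′ to 3′ on the strand of the gene, with capitals marking the match and any overlapping match:
Trim2, chr3:84212791-84212820, minus strand: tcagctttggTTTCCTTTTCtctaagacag
Trim12c, chr7:104353359-104353388, minus strand: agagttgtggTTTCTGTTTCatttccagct
Trim21, chr7:102565447-102565476, minus strand: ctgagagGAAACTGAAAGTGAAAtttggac
Trim26, chr17:36836979-36837008, plus strand: cttccgaTTTCACTTTCCTTTTCtcgggcc
Trim30a, chr7:104465210-104465239, minus strand: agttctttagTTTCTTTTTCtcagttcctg
Trim30a, further start, chr7:104446104-104446133, minus strand: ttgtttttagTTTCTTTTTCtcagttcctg
Trim30d, chr7:104507871-104507900, minus strand: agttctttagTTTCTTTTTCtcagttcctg
Trim34a, chr7:104244457-104244486, plus strand: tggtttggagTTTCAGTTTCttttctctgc

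Of these 7 genes, *Trim2* and *Trim30d* rose after knockdown, *Trim12c* and *Trim21* fell, and *Trim26*, *Trim30a* and *Trim34a* did not pass the test. *Trim2* and *Trim30d* reached 1 RPKM only in their sh-*Etv5* libraries, so their rise is in part fixed by the filter. The call of *Trim12c* was lost in some fits that left out 1 library, as given below. *Trim21* and *Trim26* each held 2 overlapping matches. *Trim2* has further starts whose windows did not hold the pattern, and its match lies after the start of the window that does. The ETS pattern stood in *Trim44*, which fell, and in *Trim46*, which rose, and the windows of *Trim25*, *Trim28* and *Trim56* held neither pattern. *Trim46* also has further starts whose windows held neither. The stretches of *Trim44* and *Trim46* are given with the ETS match in capitals, which in *Trim46* reads on the opposite strand:
Trim44, chr2:102400927-102400956, minus strand: aggctgccgcgCCGGAAGTggcgcgcgagg
Trim46, chr3:89245045-89245074, minus strand: gggggagggatACTTCCGGtggggaggggg

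TRIM genes differed between sh-*Etv5* and sh-NC in both directions, by mostly modest amounts. Whether lower *Etv5* or another effect of the hairpin was behind the differences was not tested. *Trim46*, associated with microtubules, rose the most, while *Trim28*, *Trim65* and *Trim59* fell by close amounts on the log2(RPKM + 1) scale, and *Trim65* by the most in percent. In the fit over all tested genes (limma on log2(RPKM + 1), two-sided, Benjamini-Hochberg adjusted p under 0.05), 12 of the 33 tested TRIM genes were higher in sh-*Etv5*, 12 were lower and 9 did not pass. With libraries rescaled to the same RPKM sum, 9 were higher and 14 lower, and over all genes 3133 were higher and 4921 lower. The 24 called genes were 72.7% of the members, compared with 74.3% of all tested genes. By direction, 36.4% of the members were higher and 36.4% lower, compared with 33.3% and 41% of all tested genes. The groups did not overlap for 26 members, 12 higher and 14 lower in sh-*Etv5*, or 78.8% compared with 76.4% of all tested genes (34.3% higher and 42.1% lower). These shares were near the background of a knockdown in which most expressed genes moved. The median log2 fold change of the members was -0.08, compared with -0.05 over all tested genes, and the median absolute value was 0.31 in both. Of the 33, 11 were called and moved by more than 0.5 on the log2 scale (33.3%, compared with 30.9% of all tested genes), and *Trim46* alone moved by more than 1 on the log2(RPKM + 1) scale. The counts of each list below stand against the same shares and median of all tested genes. *Trim2*, *Trim16*, *Trim30d* and *Trim45* reached the level for testing only through their sh-*Etv5* libraries, so their rise is in part fixed by the filter. The same limit holds wherever these genes enter the list counts and medians below. Of the 12 higher members, 8 reached the level in sh-NC as well. Fold changes on the log2(RPKM + 1) scale understate the change of low genes.

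**Figure D1:**
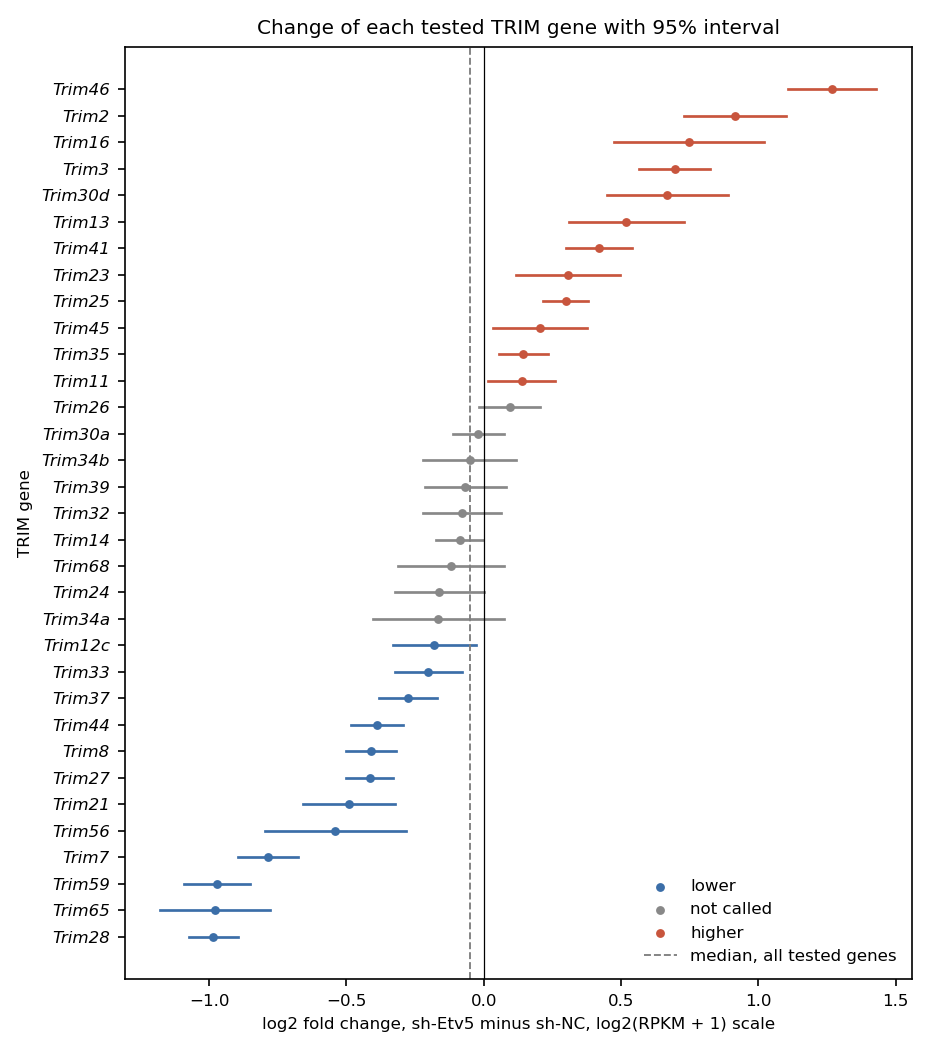
Log2 fold change (sh-*Etv5* minus sh-NC, on the log2(RPKM + 1) scale, x axis) of each of the 33 tested TRIM genes (y axis), with its 95% confidence interval from limma; red points were called higher, blue lower and grey not called, and the dashed line is the median of all tested genes (-0.05). The values run from -0.98 for *Trim28* to 1.27 for *Trim46*, with 9 genes between -0.16 and 0.09 not called.

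Levels of the family spanned more than 2 orders of magnitude, and a few members made up most of the TRIM mRNA. Summed over all 67 members, TRIM mRNA was 523, 516 and 524 RPKM in sh-NC and 435, 442 and 425 RPKM in sh-*Etv5* (521 ± 4.41 and 434 ± 8.84, SD, n = 3). The sum was lower in each sh-*Etv5* library, and *Trim28* alone held most of the difference: without it the sums were 384 ± 1.74 and 365 ± 8.38 RPKM (SD, n = 3). The 5 members with the highest mean, *Trim28*, *Trim25*, *Trim8*, *Trim35* and *Trim30a*, held 57.0% to 58.0% of the sum in sh-NC and 53.6% to 54.0% in sh-*Etv5*. *Trim28* was 26.3% of the sum in sh-NC and 15.9% in sh-*Etv5*, and its level relative to *Trim25* went from 2.84 ± 0.0438 to 1.16 ± 0.0741 (SD, n = 3). With 3 libraries against 3, an exact permutation test of such a ratio cannot go below p = 0.1, which is the value it gave (two-sided). As *Trim28* was lower and *Trim25* higher in every sh-*Etv5* library, this outcome was fixed by the choice of genes and adds no support. Ordered by level, 15 of the 32 pairs of neighbours in sh-NC and 20 of the 32 in sh-*Etv5* were no farther apart than the sum of their SDs, so much of the order is not resolved. *Trim28* stood clear of the next gene in both groups, whereas *Trim25* and *Trim8*, the next genes in sh-NC, did not differ beyond their spread. The median tested member was at 7.38 RPKM, below the 10.9 RPKM of all tested genes.

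**Figure D2:**
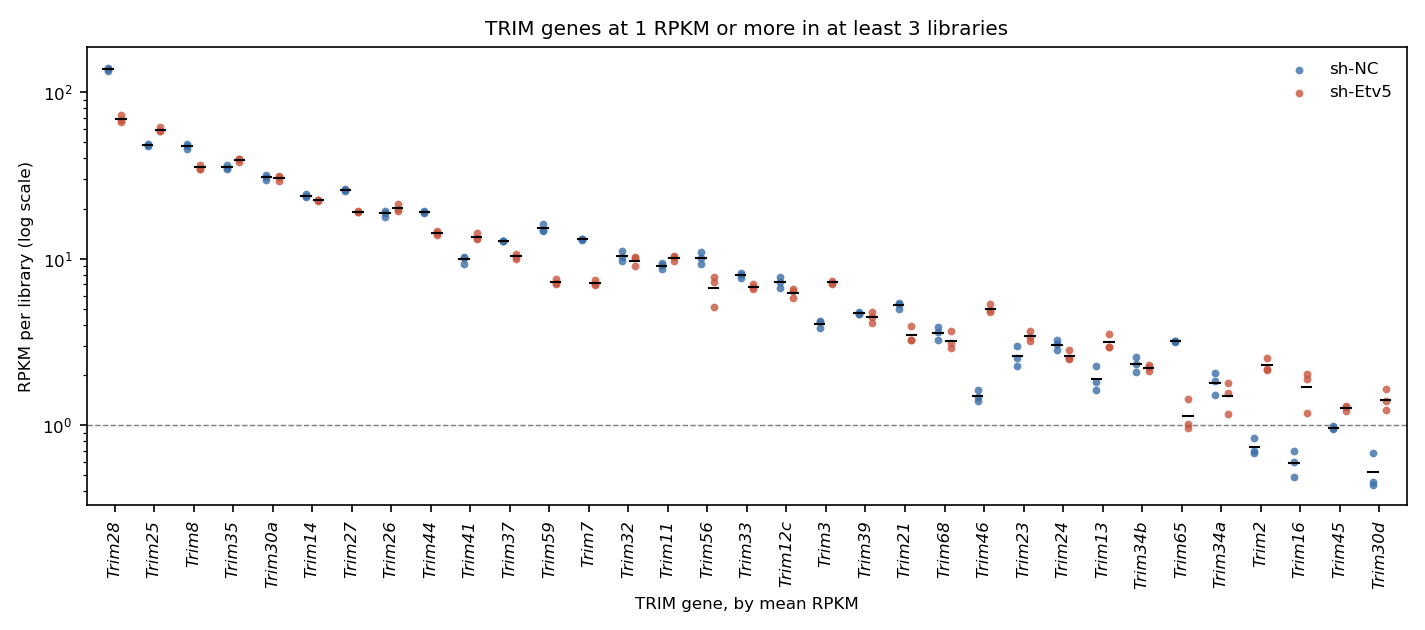
RPKM per library (y axis, log scale) of the 33 tested TRIM genes, ordered by mean level (x axis), with 3 sh-NC libraries in blue and 3 sh-*Etv5* libraries in red; black bars are group means and the dashed line is 1 RPKM. *Trim28* falls from 137 to 68.9 RPKM and comes close to *Trim25*, while *Trim46*, *Trim2*, *Trim16* and *Trim30d* at the low end are higher in every sh-*Etv5* library. *Trim2*, *Trim16* and *Trim30d* reached the level for testing only through sh-*Etv5*, so their rise is in part fixed by the filter. *Trim65*, also at the low end, is lower in every sh-*Etv5* library.

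Of the 4 chromatin members of the family 3 were tested, and *Trim28* and *Trim33* fell, with a median log2 fold change of -0.20 over the 3. *Trim28* (chr7:12999114-13031035, plus strand) encodes KAP1, the co-repressor that KRAB zinc-finger proteins recruit to DNA to silence retroelements. It was at 140.0, 133.7 and 138.1 RPKM in sh-NC and at 72.5, 68.0 and 66.3 RPKM in sh-*Etv5*. Every sh-*Etv5* library was well below every sh-NC library, and *Trim28* fell by 49.8% (log2 fold change -0.98, SE 0.0399, limma adjusted p = 2.35e-09). *Trim33*, or TIF1γ, which acts on SMAD4, was at 7.66, 8.20 and 8.03 RPKM in sh-NC and at 6.57, 7.07 and 6.73 RPKM in sh-*Etv5*. The groups did not overlap and the fall was small (-0.20, SE 0.0554, limma adjusted p = 0.00645). *Trim24*, or TIF1α, a co-regulator of nuclear receptors, was at 2.84, 3.05 and 3.26 RPKM in sh-NC and at 2.52, 2.83 and 2.51 RPKM in sh-*Etv5*. Its groups nearly touched without overlap and the difference of -0.16 (SE 0.0735) did not pass (limma adjusted p = 0.0662), but without sh-*Etv5* replicate 2 it did (-0.20, limma adjusted p = 0.0376). The 4th chromatin member, *Trim66*, was at or below 0.136 RPKM in every library.

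The genes of the repressor machinery that TRIM28 assembles were read beside it. Of 10 partners, 7 were lower in sh-*Etv5*, none was higher and 3 did not pass the test, where 41% of all tested genes were lower and 33.3% higher. Their median log2 fold change was -0.38, compared with -0.05 over all tested genes. The largest falls were in *Cbx5*, which encodes HP1α, from 30.05 ± 0.341 to 12.8 ± 0.566 RPKM (SD, n = 3; -1.17, limma adjusted p = 1.43e-09), and in *Cbx3*, which encodes HP1γ, from 65.1 ± 1.36 to 33.6 ± 2.13 RPKM (SD, n = 3; -0.93, limma adjusted p = 1.16e-08). *Setdb1*, the histone H3 lysine 9 methyltransferase of the complex, fell by 0.40 on the log2 scale (limma adjusted p = 1.11e-05), and *Atf7ip*, its stabilising partner, fell by 0.75 (limma adjusted p = 8.08e-07). *Hdac1*, *Chd3* and *Smarcad1* did not pass.

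**Figure D3:**
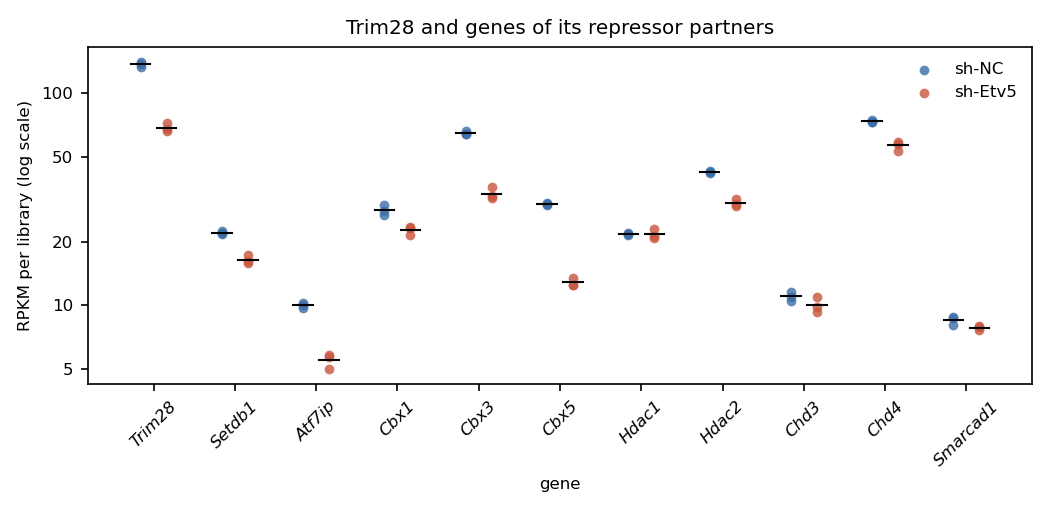
RPKM per library (y axis, log scale) of *Trim28* and 10 genes of its repressor partners (x axis), with 3 sh-NC libraries in blue, 3 sh-*Etv5* libraries in red and group means as black bars. *Trim28*, *Cbx3*, *Cbx5* and *Atf7ip* are the genes with the widest gaps between the groups, and *Hdac1* has the same mean of 21.7 RPKM in both.

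Members known to be induced by interferon did not move together. Of 15 such genes, 10 were tested: *Trim25* and *Trim30d* rose, *Trim12c*, *Trim21* and *Trim56* fell, and 5 did not pass, with a median log2 fold change of -0.07. *Trim25*, the ligase that activates the RNA sensor RIG-I, was at 48.6, 47.8 and 48.4 RPKM in sh-NC and at 58.5, 62.0 and 58.3 RPKM in sh-*Etv5*. All sh-*Etv5* libraries were above all sh-NC libraries (0.30, SE 0.0369, limma adjusted p = 2.21e-05). *Trim21*, the cytosolic receptor for antibody-coated virus (chr7:102557921-102565486, minus strand), was at 5.33, 5.45 and 4.98 RPKM in sh-NC and at 3.92, 3.23 and 3.24 RPKM in sh-*Etv5*. It was lower in every sh-*Etv5* library (-0.49, SE 0.0755, limma adjusted p = 1.29e-04). *Trim56*, a ligase of the STING pathway, was at 9.25, 10.1 and 10.9 RPKM in sh-NC and at 7.29, 7.72 and 5.11 RPKM in sh-*Etv5*. It fell as well, and sh-*Etv5* replicate 3 was the lowest by some distance (-0.54, SE 0.116, limma adjusted p = 0.00147), and in the fit without a filter on low values it did not pass (limma adjusted p = 0.0699). *Trim14*, a mitochondrial adaptor of MAVS that has no RING domain, went from 23.9 ± 0.476 to 22.4 ± 0.0698 RPKM (SD, n = 3; -0.09, limma adjusted p = 0.0609). Its groups did not overlap, but 38.0% of its exonic bases lie opposite exons of other genes, among them *Nans*, and whether strand was used in counting was not stated. *Trim26* went from 18.7 ± 0.804 to 20.1 ± 1.01 RPKM (SD, n = 3; 0.09, limma adjusted p = 0.113), with overlapping groups, and *Trim38* was below 0.1 RPKM in every library.

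Interferon-stimulated genes outside the family stand beside these values. Of 20 reference genes 19 were tested, 13 were higher, 5 lower and 1 did not pass, with a median of 0.43. *Rsad2*, the antiviral radical enzyme viperin, rose from 2.56 ± 0.081 to 28.6 ± 2.06 RPKM (SD, n = 3; 3.05, limma adjusted p = 7.64e-12) and *Zbp1*, a sensor of Z-form nucleic acid, by 1.58 on the log2 scale (limma adjusted p = 2.29e-09). Those that fell included *Mx1*, *Oasl2*, *Irf9* and *Rtp4*. The median of the TRIM list was thus -0.07 where that of the reference list was 0.43. The difference between the lists was not tested.

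A cluster of TRIM genes lies on chromosome 7, where rodents have expanded the *Trim30*, *Trim12* and *Trim34* genes. The table held 9 of its 10 listed genes, of which 5 were tested: *Trim30d* rose, *Trim12c* fell and 3 did not pass, with a median of -0.05. *Trim30a* (chr7:104409025-104465193, minus strand), known to restrain NF-κB signalling through TAB2 and TAB3, was at 29.8, 31.2 and 31.8 RPKM in sh-NC and at 29.4, 30.8 and 31.3 RPKM in sh-*Etv5*. The groups overlapped almost fully (-0.02, SE 0.0421, 95% interval -0.11 to 0.07, limma adjusted p = 0.68). *Trim30d* (chr7:104470014-104507849, minus strand), the next gene on the same strand, was at 0.440, 0.682 and 0.457 RPKM in sh-NC and at 1.23, 1.40 and 1.65 RPKM in sh-*Etv5*. Every sh-*Etv5* library was above every sh-NC library (0.67, SE 0.09997, limma adjusted p = 1.02e-04), from a level far below that of *Trim30a*. With a pseudocount of 0.01 the value was 1.44, and with quantile normalization 0.43. Of the 50-base words of *Trim30d* exons, 7.49% occur in another gene, mainly *Trim30a*, so some reads could be placed in either. As *Trim30a* was far higher, the low level of *Trim30d* and its ratio to *Trim30a* below are uncertain.

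*Trim12c* was at 6.65, 7.74 and 7.27 RPKM in sh-NC and at 5.80, 6.60 and 6.36 RPKM in sh-*Etv5*. The groups were separated by a narrow gap (-0.18, SE 0.0686, limma adjusted p = 0.0341), and the call was lost without sh-NC replicate 2 (limma adjusted p = 0.137), sh-NC replicate 3 (0.0799) or sh-*Etv5* replicate 1 (0.127). It shares 33.0% of its 50-base words, mainly with *Trim5*. *Trim34a* was at 1.51, 2.05 and 1.85 RPKM in sh-NC and at 1.55, 1.78 and 1.17 RPKM in sh-*Etv5* (-0.16, SE 0.108, limma adjusted p = 0.188), and *Trim34b* at 2.10, 2.33 and 2.55 RPKM and at 2.29, 2.12 and 2.23 RPKM (-0.05, SE 0.0766, limma adjusted p = 0.565). Both had overlapping groups. They share 39.8% and 56.8% of their 50-base words, mainly with each other, so their separate levels are uncertain. *Trim5* and *Trim12a* stayed at or below 0.247 RPKM, and *Trim6* and *Trim30b* below 0.1 RPKM.

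**Figure D4:**
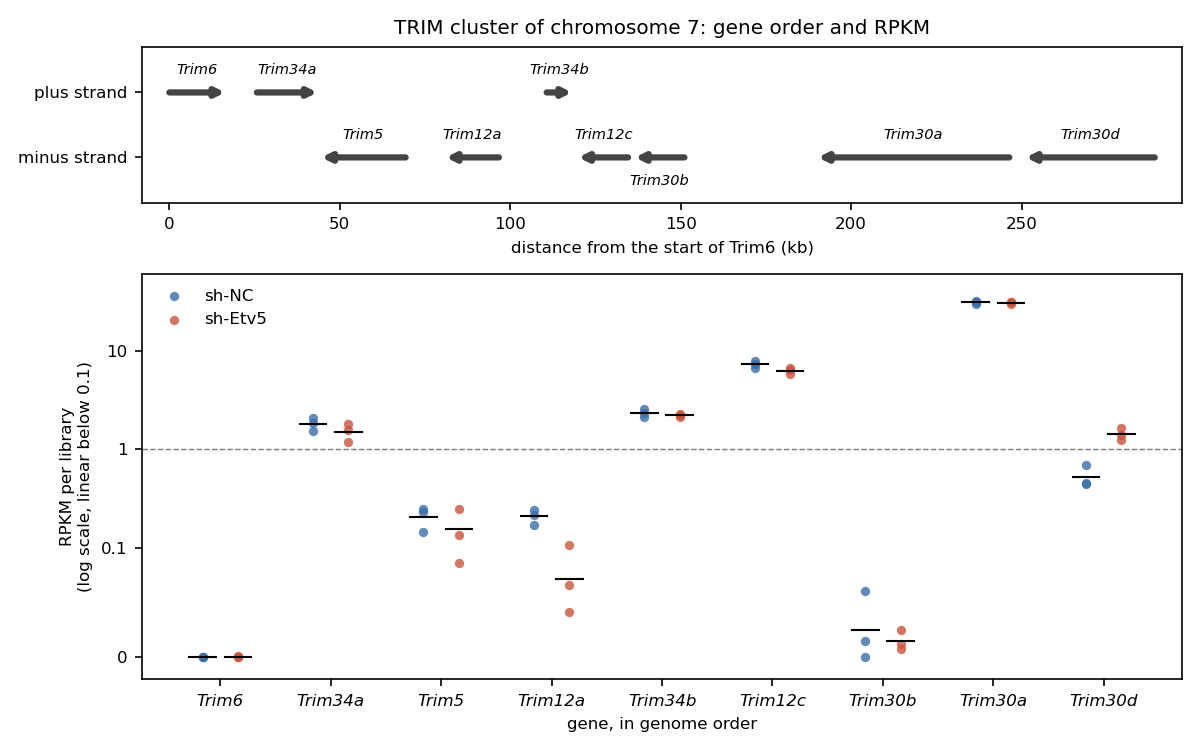
The upper panel maps the 9 genes of the chromosome 7 cluster to scale by strand (x axis, distance in kb from the start of *Trim6*; arrows point in the direction of transcription), and the lower panel gives their RPKM per library in genome order (y axis, log scale above 0.1 and linear below; 3 sh-NC libraries in blue, 3 sh-*Etv5* libraries in red, group means as black bars, dashed line at 1 RPKM). *Trim30a* stays near 30.9 and 30.5 RPKM while *Trim30d* goes from 0.526 to 1.43 RPKM.

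The sequences just upstream of *Trim30a* and *Trim30d* were compared, since the genes lie 4.82 kb apart and differed in the call. Over the 250 bases before the start, 227 bases were identical (90.8%), with 18 mismatches and 10 gap positions, and the 30-base stretch around the interferon pattern was the same in both. *Trim30a* has a further start, whose window also holds the pattern just after the start, and its 250 upstream bases shared 71.6% with those of *Trim30d*. The level of *Trim30d* relative to *Trim30a* went from 0.0170 ± 0.00423 to 0.0467 ± 0.00551 (SD, n = 3; exact permutation test, two-sided p = 0.1, the smallest it can give). Both upstream sequences are shown 5′ to 3′ on the strand of the gene, with the interferon pattern in capitals (RefSeq, GRCm38.p6):
Trim30a, chr7:104465194-104465443, minus strand: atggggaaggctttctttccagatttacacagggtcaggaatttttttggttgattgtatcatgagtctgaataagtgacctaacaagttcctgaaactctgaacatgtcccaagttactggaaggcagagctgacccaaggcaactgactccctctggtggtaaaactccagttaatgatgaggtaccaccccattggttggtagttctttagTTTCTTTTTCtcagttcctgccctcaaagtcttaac
Trim30d, chr7:104507850-104508099, minus strand: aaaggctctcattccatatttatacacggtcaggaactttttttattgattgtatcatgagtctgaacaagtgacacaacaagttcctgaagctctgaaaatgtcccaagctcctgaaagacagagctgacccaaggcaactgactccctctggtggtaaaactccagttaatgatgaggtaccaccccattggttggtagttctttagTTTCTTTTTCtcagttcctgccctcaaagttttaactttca

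Members that act on Toll-like receptor and NF-κB signalling were mixed. Of 6 listed, 4 were tested: *Trim23* rose, *Trim8* and *Trim27* fell and *Trim30a* did not pass, with a median of -0.22. *Trim8*, which builds ubiquitin chains on the kinase TAK1, was at 48.7, 47.4 and 45.7 RPKM in sh-NC and at 34.7, 36.8 and 34.4 RPKM in sh-*Etv5*. It was lower in all sh-*Etv5* libraries (-0.41, SE 0.0412, limma adjusted p = 3.89e-06). *Trim27*, the RET finger protein, was at 25.5, 25.8 and 26.3 RPKM in sh-NC and at 19.3, 19.1 and 19.1 RPKM in sh-*Etv5*. The sh-*Etv5* libraries were close together and below all controls (-0.42, SE 0.0387, limma adjusted p = 2.11e-06). *Trim23*, which carries an ARF-type GTPase domain, was at 2.26, 2.99 and 2.55 RPKM in sh-NC and at 3.22, 3.404 and 3.68 RPKM in sh-*Etv5*. It was higher in all sh-*Etv5* libraries by a small step (0.31, SE 0.0857, limma adjusted p = 0.00748), and did not pass without the filter on low values (limma adjusted p = 0.0720).

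The largest rises included the COS-box member *Trim46* and the NHL-domain members *Trim2* and *Trim3*. *Trim46*, which organises parallel microtubules at the start of the axon (chr3:89234177-89246309, minus strand), was at 1.39, 1.48 and 1.63 RPKM in sh-NC and at 4.79, 5.35 and 4.92 RPKM in sh-*Etv5*. The groups were far apart (1.27, SE 0.0723, limma adjusted p = 3.54e-08). It was the 1 tested gene of 8 members with a COS microtubule-binding box, and 6.30% of its exonic bases lie opposite *Krtcap2*. Of the 4 NHL members 3 were tested, of which 2 rose and 1 did not pass. Among the rises, *Trim2* reached the level for testing only through its sh-*Etv5* libraries. *Trim2*, a ligase for the neurofilament light chain, was at 0.684, 0.699 and 0.843 RPKM in sh-NC and at 2.18, 2.54 and 2.14 RPKM in sh-*Etv5*. The groups did not overlap (0.92, SE 0.0843, limma adjusted p = 1.94e-06), and a pseudocount of 0.01 gave 1.61. *Trim3*, also known from brain, was at 4.17, 3.86 and 4.205 RPKM in sh-NC and at 7.18, 7.37 and 7.09 RPKM in sh-*Etv5*. It was higher in all sh-*Etv5* libraries (0.70, SE 0.0585, limma adjusted p = 9.23e-07). The remaining tested NHL member, *Trim32*, known from muscle, went from 10.4 ± 0.701 to 9.75 ± 0.670 RPKM (SD, n = 3; -0.08, limma adjusted p = 0.289) with overlapping groups, and *Trim71* was below 0.1 RPKM. The median of the 3 tested NHL members was 0.70, with *Trim2* counted.

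*Trim16*, which lacks a RING domain and helps clear damaged lysosomes by autophagy, was at 0.488, 0.605 and 0.696 RPKM in sh-NC and at 1.89, 2.03 and 1.18 RPKM in sh-*Etv5*. The groups did not overlap although sh-*Etv5* replicate 3 was nearer to the controls (0.75, SE 0.123, limma adjusted p = 2.15e-04), and a pseudocount of 0.01 gave 1.47. *Trim44*, another member without a RING domain, fell from 19.1 ± 0.289 to 14.3 ± 0.357 RPKM (SD, n = 3; -0.39, limma adjusted p = 8.76e-06). Of the 5 members without a RING, 3 were tested and 1 rose, 1 fell and 1, *Trim14*, did not pass.

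The pair of membrane-anchored members moved in opposite directions. *Trim59* was at 14.8, 14.7 and 16.1 RPKM in sh-NC and at 7.18, 7.02 and 7.58 RPKM in sh-*Etv5*. It fell by 52.2% with no overlap (-0.97, SE 0.0544, limma adjusted p = 3.08e-08). *Trim13*, which sits in the endoplasmic reticulum and takes part in the degradation of its proteins, was at 1.62, 1.83 and 2.25 RPKM in sh-NC and at 3.52, 2.95 and 2.97 RPKM in sh-*Etv5*. It was higher in all sh-*Etv5* libraries (0.52, SE 0.095, limma adjusted p = 4.64e-04), and shares 14.2% of its 50-base words, mainly with the gene *Gm9359*. Of the MATH, ARF and filamin-type members, *Trim23* and *Trim45* rose and *Trim37*, a ligase at peroxisomes and centrosomes, fell from 12.7 ± 0.0455 to 10.3 ± 0.356 RPKM (SD, n = 3; -0.28, limma adjusted p = 2.96e-04).

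In 3 pairs of neighbouring TRIM genes, picked after their values were seen, the members differed in direction or in the call. *Trim41* and *Trim7* lie 8.786 kb apart on chromosome 11 on opposite strands. *Trim7*, whose protein binds glycogenin, was at 13.1, 12.9 and 13.1 RPKM in sh-NC and at 6.98, 7.02 and 7.46 RPKM in sh-*Etv5*. It fell by 45.1% with no overlap (-0.78, SE 0.0498, limma adjusted p = 8.74e-08). *Trim41* was at 10.3, 9.34 and 10.1 RPKM in sh-NC and at 14.3, 13.2 and 13.2 RPKM in sh-*Etv5*. It rose with no overlap (0.42, SE 0.0547, limma adjusted p = 3.45e-05), so that the ratio of *Trim7* to *Trim41* went from 1.32 ± 0.0573 to 0.528 ± 0.0378 (SD, n = 3). Exons of other genes lie opposite 8.31% of the exonic bases of *Trim7* (*Gm16170* and *Gm12184*) and 0.883% of those of *Trim41* (*Rack1*).

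*Trim65* and *Trim47* overlap each other on the minus strand of chromosome 11. *Trim65*, a ligase for the RNA sensor MDA5, was at 3.22, 3.19 and 3.17 RPKM in sh-NC and at 1.02, 1.43 and 0.962 RPKM in sh-*Etv5*. It fell by 64.3%, the largest fall in percent among the tested members (-0.98, SE 0.0906, limma adjusted p = 2.05e-06), and a pseudocount of 0.01 gave -1.50. *Trim47* was below the level for testing, at 0.221, 0.262 and 0.170 RPKM in sh-NC and at 0.803, 0.894 and 0.668 RPKM in sh-*Etv5*. Its sh-*Etv5* libraries were all higher, opposite to *Trim65*. The ratio of *Trim65* to *Trim47* went from 15.1 ± 3.29 to 1.44 ± 0.163 (SD, n = 3). Of the 50-base words, 3.05% in *Trim65* and 6.58% in *Trim47* are shared, mainly with each other. Some reads of *Trim65* could be placed in the much lower *Trim47*, so the level of *Trim47* and this ratio are uncertain. For each of the 3 neighbouring pairs, *Trim30a* with *Trim30d* included, the exact permutation test of the ratio gave p = 0.1 (two-sided), the smallest it can give. The pairs were picked after their values were seen, so this outcome was fixed by the choice and adds no support.

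**Figure D5:**
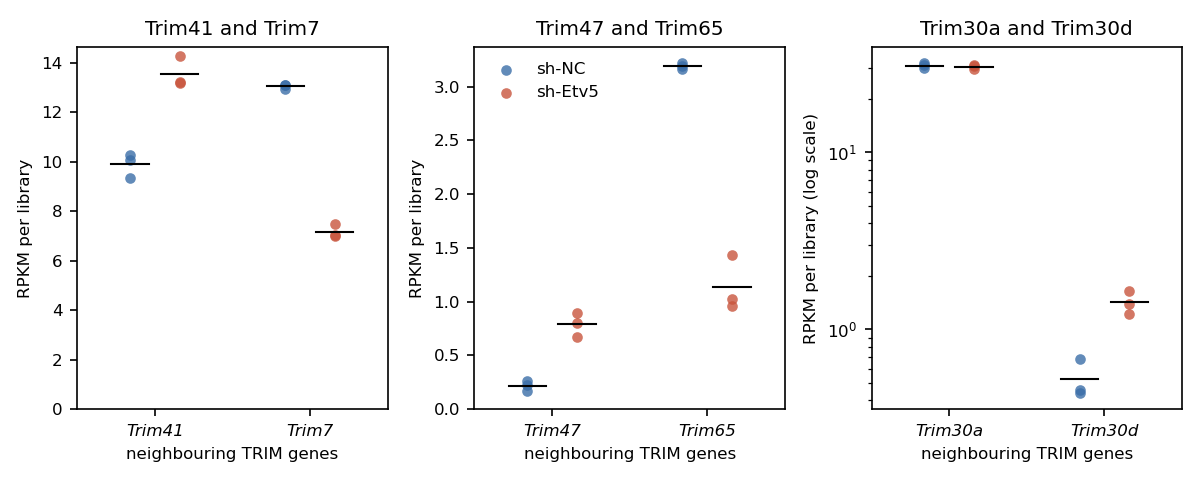
RPKM per library (y axis; linear from 0 in the left and middle panels, log scale in the right panel) of 3 pairs of neighbouring TRIM genes (x axis), with 3 sh-NC libraries in blue, 3 sh-*Etv5* libraries in red and group means as black bars. *Trim41* and *Trim47* are higher in sh-*Etv5* while their neighbours *Trim7* and *Trim65* are lower, and *Trim30d* is higher while *Trim30a* overlaps.

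The remaining called members changed little. *Trim35*, the 4th most abundant member, was at 36.6, 34.9 and 34.4 RPKM in sh-NC and at 39.7, 39.8 and 37.9 RPKM in sh-*Etv5*. Its groups did not overlap (0.14, SE 0.0402, limma adjusted p = 0.00729), but the call was lost once libraries were scaled to the same RPKM sum (limma adjusted p = 0.0962). *Trim11* went from 9.09 ± 0.431 to 10.1 ± 0.398 RPKM (SD, n = 3; 0.14, limma adjusted p = 0.0407), and the call was lost without sh-NC replicate 2 (limma adjusted p = 0.157), sh-NC replicate 3 (0.0754), sh-*Etv5* replicate 1 (0.0921) or sh-*Etv5* replicate 2 (0.112). With libraries scaled to the same sum it was 0.082 (limma adjusted p = 0.226), and without the filter on low values it did not pass either (0.0855). *Trim45* went from 0.967 ± 0.0257 to 1.27 ± 0.0456 RPKM (SD, n = 3; 0.21, limma adjusted p = 0.0314). That call was lost without sh-NC replicate 1 (limma adjusted p = 0.0767), 2 (0.0576) or 3 (0.0780), or sh-*Etv5* replicate 2 (0.0586) or 3 (0.0695), and the difference shrank to 0.031 with quantile normalization (limma adjusted p = 0.722) and to 0.17 with libraries scaled to the same sum (0.0682). By its third-highest library *Trim16*, at 1.18 RPKM, was the member just above the level for testing. Among members not yet named, *Trim39*, a ligase linked to apoptosis, went from 4.69 ± 0.082 to 4.44 ± 0.344 RPKM (SD, n = 3; -0.07, limma adjusted p = 0.379) and *Trim68* from 3.58 ± 0.333 to 3.23 ± 0.409 RPKM (SD, n = 3; -0.12, limma adjusted p = 0.231), both with overlapping groups and neither passing.

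The 34 members under the level for testing never exceeded 0.894 RPKM in any library. *Trim29*, *Trim40*, *Trim52*, *Trim55*, *Trim58*, *Trim61* and *Trim80* were listed at 0 in all 6 libraries, and 14 others (*Trim6*, *Trim9*, *Trim15*, *Trim17*, *Trim30b*, *Trim31*, *Trim38*, *Trim43a*, *Trim60*, *Trim63*, *Trim67*, *Trim71*, *Trim72* and *Trim75*) were above 0 in some library but below 0.1 RPKM in all. The other 13 reached 0.1 RPKM or more in a library, and beside those described here they were *Trim10*, *Trim43b*, *Trim43c*, *Trim50*, *Trim54* and *Trim69*. The 3 with the highest mean were *Trim47*, just outside the level for testing, *Trim36* and *Trim5*. *Trim36*, a COS-box member, was at 0.603, 0.408 and 0.628 RPKM in sh-NC and at 0.362, 0.270 and 0.353 RPKM in sh-*Etv5*, with the sh-*Etv5* libraries all lower. *Trim5* was at 0.228, 0.245 and 0.145 RPKM and at 0.247, 0.0859 and 0.133 RPKM, with overlap. The groups did not overlap for 7 of the 34, compared with 11.8% of all 14048 genes under the level, many of which are at 0; this difference was not tested. In a fit that kept all 24786 genes, 4 of the 34 passed, compared with 6.37% of the genes under the level: *Trim47* and *Trim62* were higher, and *Trim12a* and *Trim42* lower. Differences at these levels rest on few reads.

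TRIM proteins under other symbols and the enzymes they work with were read from the same fit. Of 6 such family members, *Pml*, the organiser of nuclear bodies, was at 22.1, 20.9 and 21.8 RPKM in sh-NC and at 13.3, 14.1 and 13.0 RPKM in sh-*Etv5*. It fell with no overlap (-0.64, limma adjusted p = 2.75e-07). *Mid1*, a microtubule-bound ligase, was at 5.31, 4.82 and 5.64 RPKM and at 4.93, 5.18 and 4.10 RPKM (-0.13, limma adjusted p = 0.185), with overlap, and *Mid2*, *Mefv*, *Triml1* and *Triml2* were at or near 0.

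Of 16 genes for ubiquitin and for E1 and E2 enzymes that serve RING ligases, 15 were tested, 3 were higher, 7 lower and 5 did not pass (median -0.01). *Ubb*, which encodes ubiquitin and is also known as a stress-induced gene, rose (0.77, limma adjusted p = 3.26e-08), while the E2 enzyme genes that fell were *Ube2d1*, *Ube2d2a*, *Ube2d3*, *Ube2e3*, *Ube2n* and *Ube2v1*. All 5 genes of the ISG15 pathway, a ubiquitin-like modifier that TRIM25 can also attach, were tested and 4 were higher and 1 lower (median 0.33). *Isg15* itself rose from 33.4 ± 1.74 to 72.7 ± 6.1996 RPKM (SD, n = 3; 1.10, limma adjusted p = 2.33e-08) and *Herc6*, its ligase in mice, by 0.58 on the log2 scale (limma adjusted p = 6.14e-06). *Ube2l6*, its E2 enzyme, was the 1 that fell (-0.15, limma adjusted p = 0.00185). Of 17 sensors, adaptors and kinases that TRIM ligases act on, 6 were higher, 9 lower and 2 did not pass (median -0.21). The largest changes were the rises of *Ikbke*, a kinase that activates interferon regulatory factors, from 5.5001 ± 0.402 to 19.6 ± 0.972 RPKM (SD, n = 3; 1.67, limma adjusted p = 9.77e-10) and of *Ticam1*, the adaptor TRIF of Toll-like receptor 3, from 6.38 ± 0.269 to 17.8 ± 0.266 RPKM (SD, n = 3; 1.35, limma adjusted p = 1.08e-09). Targets and their ligases did not always move the same way. *Ddx58*, which encodes RIG-I, fell by 0.25 on the log2 scale (limma adjusted p = 5.32e-04) where *Trim25* rose. *Ifih1*, which encodes MDA5, rose by 1.00 (limma adjusted p = 1.50e-08) where *Trim65* fell. *Map3k7*, which encodes TAK1, fell by 0.35 (limma adjusted p = 1.59e-04), as *Trim8* did. These pairs are examples picked after their values were seen, where 74.3% of all tested genes were called in either direction.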

How the data were processed

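Polyadenylated RNA from RAW264.7 cells was sequenced (Illumina TruSeq v2), 3 sh-NC and 3 sh-*Etv5* libraries. The authors deposited 1 merged table of RPKM values per gene symbol and library, with the build mm10 per the labels; aligner, counter and strand use are not given in the sources used here. Sums of RPKM were 320462 to 340257 per library. Low values of single-transcript genes clustered at a step that, if it is 1 read, gives 18567331 to 22019159 reads, but only 33.1% to 38.3% of low values lay within 5% of whole steps, so counts were not recovered and the depth is not known.

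From these values log2(RPKM + 1) was fitted with limma 3.58.1 (R 4.3.3, eBayes with trend, two-sided) over the 10738 genes at 1 RPKM or more in at least 3 of 6 libraries, with Benjamini-Hochberg adjustment over all of them and calls under 0.05. The fit was tested on simulated data. limma is the package the study's methods name. No set test was run. The members, lists and named genes were chosen with earlier results of these data known. Per-library values are given for the 8 largest rises and falls, the 5 highest members, and the tested chromosome 7 and chromatin members; other tested members are given by mean, and those under the filter by range and the 3 highest. Some genes of the lists outside the family are not reported here. *Ddx58*, *Ifih1*, *Map3k7*, *Setdb1*, *Atf7ip*, *Trim62*, *Trim12a* and *Trim42* and the members of short lists that fell were named after their values were seen. Symbols were matched to GENCODE M21 (GRCm38) for 97.9% of symbols and all 67 members, which gave positions, strand overlaps and shared 50-base words. Promoter sequences are RefSeq's (GRCm38.p6). These sequences and the shared 50-base words are those of the reference genome and were not read from these cells. Alternatives covered the pseudocount, the filter, scaling, trend, the replicate number as a block, and leaving out each library.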

Additional observations from a re-analysis of the deposited data

How the results depend on the processing

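The count of TRIM genes called higher was 12, and 5 of 19 tested with a mean of at least 5 RPKM; with an absolute log2 fold change above 0.5 it was 6, with 5 lower, and over all genes 1711 higher and 1611 lower. Leaving out 1 library at a time gave 10 to 11 TRIM genes higher, 11 to 13 lower, 3358 to 3494 genes higher, 4140 to 4371 lower, and a log2 fold change of *Etv5* of -0.80 to -0.75. *Trim30a*, not called, changed sign to 0.043 with quantile normalization, and was -0.045 to 0.0054 with 1 library left out; the cause was not tested. Of 513 gene values under alternatives, 481 kept direction and side of the threshold, 22 were weaker, 8 stronger and 2 reversed, and 22 genes kept their call throughout. Calls were lost most often for *Trim11*, *Trim12c* and *Trim45*. *Trim24* gained a call in 4 fits, *Trim14* in 2 (limma adjusted p = 0.0070 with libraries scaled to the same sum), and *Trim26* and *Trim34a* with quantile normalization. A filter on the mean over all libraries of at least 1 RPKM, chosen after seeing the data, dropped *Trim30d* and left 11 higher and 12 lower. The median of all genes moved by at most 0.05 on the log2 scale under any scaling.

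The labels number the replicates, but same-numbered libraries did not deviate together (correlations 0.0739, -0.0710 and -0.0352; 2 of 6 libraries correlated best with their own number), so the numbers are not read as pairs. With the replicate number as a block, 10 TRIM genes were higher and 12 lower, with 3539 and 4361 over all genes, and the 2 calls lost were *Trim11* (limma adjusted p = 0.0606) and *Trim45* (0.0541). Low members are limited by depth, which is not known.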
